A study of Mus musculus with 3 samples.

Results

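Transcripts of 9 matricellular genes, Thbs1, Thbs2, Thbs3, Thbs4, Spp1, Sparc, Sparcl1, Tnc and Postn, were followed in neural stem cells of the mouse, compared between cultures labelled Dnmt3a knockout (KO) and wild type (WT). The members were found by their gene name on the arrays, with every probe of each taken, which gave 16 probes of the 41174 on the array and 9 of the 18054 genes with a tested probe. The genes were proposed with results of these arrays in view, so the members' values are described here without a test. Matricellular proteins are secreted into the extracellular matrix, where they act less as building blocks than as signals that alter how cells attach, migrate and respond to growth factors. They bind integrins, CD44, CD36, CD47 and syndecans at the cell surface, collagens and fibronectin in the matrix, and several of them regulate TGF-beta. In the nervous system, thrombospondins and Sparcl1 released by astrocytes act on synapse formation, tenascin-C is a component of the neural stem cell niche, and osteopontin is known from activated microglia.

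Each of 3 arrays carried RNA of Dnmt3a-/- cells in Cy3 and RNA of wildtype cells in Cy5, from 1 biological replicate of each genotype. Dnmt3a encodes an enzyme that adds new methyl groups to DNA. Cells of both genotypes had been derived from embryonic stem cells through neurospheres and were grown adherent in N2B27 medium with EGF and bFGF, each at 10 ng/ml. The labels name no cell line or clone and do not say whether the replicates were separate derivations, so p-values measure only the spread between these samples. No array had its dyes exchanged, so a probe's bias toward a dye and the genotype cannot be told apart. Values are log2 ratios within an array, labelled KO against labelled WT, with the mean ± SD of 3 arrays, where a value of 1 is a doubling.

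The targeted gene went against its label. The brightest Dnmt3a probe read 1.07, 0.97 and 0.92 on arrays 1, 2 and 3, which is 1.99-fold higher in the RNA labelled KO, and the other probes averaged 0.61 and 0.76. Which part of the gene had been removed is not stated in the labels, and all directions below would turn if the labels were exchanged. Per array and channel, 63.6% to 68.8% of probes stood well above background. The array ratios had correlations of r = 0.906 to 0.928 across genes, genes not being independent replicates. All 7 neural stem cell markers were measured in both channels on all arrays, with Sox2, Fabp7, Vim and Nes lower and Pax6 and Prom1 higher in the RNA labelled KO by limma, while Msi1 did not pass the threshold. Of all 18054 genes, 21.9% were higher and 24.8% lower past the threshold, the shares to set beside the marker counts here. Markers of other cell types were present in part. Of 7 astrocyte markers 6 were tested, with 0 higher and 3 lower, Aldh1l1 at -1.01 ± 0.06 among them, and Gfap did not stand well above background on any array. Of 7 oligodendrocyte lineage markers 0 were higher and 4 lower, Olig1 at -1.33 ± 0.05, Cspg4 at -1.26 ± 0.06, Olig2 at -0.63 ± 0.03 and Pdgfra at -0.59 ± 0.04, and their summed signal was 1940 to 1956 labelled KO and 3067 to 3146 labelled WT. Of 5 neuron markers 4 were tested, with 2 lower, Dcx at -0.53 ± 0.11 and Tubb3 at -0.23 ± 0.04. Of 6 endothelial markers Kdr, Tek, Cldn5 and Emcn were tested, with Emcn higher at 0.21 ± 0.06, and Pecam1 and Cdh5 did not reach above background. Of 5 pluripotency markers Dppa5a, higher at 0.17 ± 0.06, and Esrrb were tested, and Nanog and Zfp42 did not reach above background. All 10 fibroblast markers were tested, though Tcf21 was not above background in the channel labelled KO. The part of these cell types in the members' ratios was not tested. In bulk RNA, fewer cells of a type and less RNA per cell cannot be told apart.

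The members with the highest and the lowest ratio, Spp1 and Thbs4, also differ in the 250 bases before their start. DNA methylation is placed mainly at CG dinucleotides, so the sequences are shown with every CG in capitals, 5′ to 3′ on the gene's strand, from RefSeq on GRCm38.p6. That of Spp1 lies at chr5:104434861-104435110 on the plus strand and that of Thbs4 at chr13:92794819-92795068 on the minus strand.
Spp1 promoter: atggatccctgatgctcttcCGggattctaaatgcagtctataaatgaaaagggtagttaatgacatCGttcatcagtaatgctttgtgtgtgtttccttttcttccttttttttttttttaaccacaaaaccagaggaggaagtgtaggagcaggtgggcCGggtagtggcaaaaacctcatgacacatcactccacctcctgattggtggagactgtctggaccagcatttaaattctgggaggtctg
Thbs4 promoter: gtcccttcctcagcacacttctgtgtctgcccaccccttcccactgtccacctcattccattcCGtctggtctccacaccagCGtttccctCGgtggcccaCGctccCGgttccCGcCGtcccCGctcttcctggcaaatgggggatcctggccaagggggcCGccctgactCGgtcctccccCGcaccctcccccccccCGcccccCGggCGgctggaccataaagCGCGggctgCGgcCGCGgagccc
The letters CG, which read the same on both strands, occurred 3 times before Spp1 and 19 times before Thbs4. A further start that RefSeq lists for Spp1 also had 3. Over 32851 RefSeq promoters of the same length the median was 6, and 71.0% held at least as many as Spp1 and 19.7% at least as many as Thbs4. RefSeq entries matched 7 of the 9 members. Among the others the count was 3 for Thbs2, 6 for Thbs3, 4 for Sparc, 3 and 4 at the starts listed for Postn and 8 and 10 at those listed for Tnc. Thbs1 and Sparcl1 had no matched entry. These counts describe letters only, since methylation was not measured on these arrays.

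The members' RNA was read by 60-base probes, and several members have probes at separate places of the gene. The 5 probes shown here lie at positions that the comparisons between probes or between thrombospondins turn on, and they are given 5′ to 3′ with their place on mm7. The capitals in the Thbs1 probes mark the longest run that they share, of 11 bases, within the repeated calcium-binding part of the thrombospondin.
Thbs4, A_51_P353221, chr13:89817559-89817618, minus strand: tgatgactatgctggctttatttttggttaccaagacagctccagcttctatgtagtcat
Thbs2, A_51_P461877, chr17:12950083-12951346, minus strand: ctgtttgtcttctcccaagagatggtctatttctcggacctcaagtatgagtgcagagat
Thbs1, A_52_P337086, chr2:117863442-117863501, plus strand: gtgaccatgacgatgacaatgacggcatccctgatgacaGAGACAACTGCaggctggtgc
Thbs1, A_52_P337092, chr2:117861824-117862004, plus strand: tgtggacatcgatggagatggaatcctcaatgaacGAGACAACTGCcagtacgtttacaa
Tnc, A_52_P355169, chr4:63446910-63447673, minus strand: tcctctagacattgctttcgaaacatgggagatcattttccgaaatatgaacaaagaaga
The probes of Thbs2 and Tnc and the probe of Thbs1 at 117861824 span more genome than their own 60 bases and so cross an exon junction. No run shared between probes of different members was longer than 8 bases. On all 3 arrays, every one of the 16 probes stood well above background in either channel, and 0 were saturated. Past the threshold, an adjusted p under 0.05 from limma, 10 probes were higher in the RNA labelled KO, 3 were lower and 3 did not pass. Of all probes tested, 44.3% passed, 20.7% higher and 23.6% lower.

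Thbs4 was much lower in the RNA labelled KO and Spp1 much higher. By their brightest probes, 6 of the 9 members were higher and 2 were lower past the threshold, against 46.7% of all 18054 genes past it in either direction, 21.9% higher and 24.8% lower. Because the members were picked from this contrast, nothing is read from these shares. The members' median ratio was 0.53 and that of all genes -0.01. A change of at least 1.5-fold was seen in 5 members and in 4.01% of all genes, and of at least 2-fold in 2 members and in 1.17%. The 3 levels labelled KO and the 3 labelled WT did not overlap in 8 of the 9 members, and in 45.1% of all genes. The SD between arrays ran from 0.01 for Spp1 to 0.13 for Thbs1, with a median of 0.06 for members and for all genes alike. Spp1 was averaged over up to 10 spots per array where the other member probes had 1, so its SD is not comparable with theirs.

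**Figure D1:**
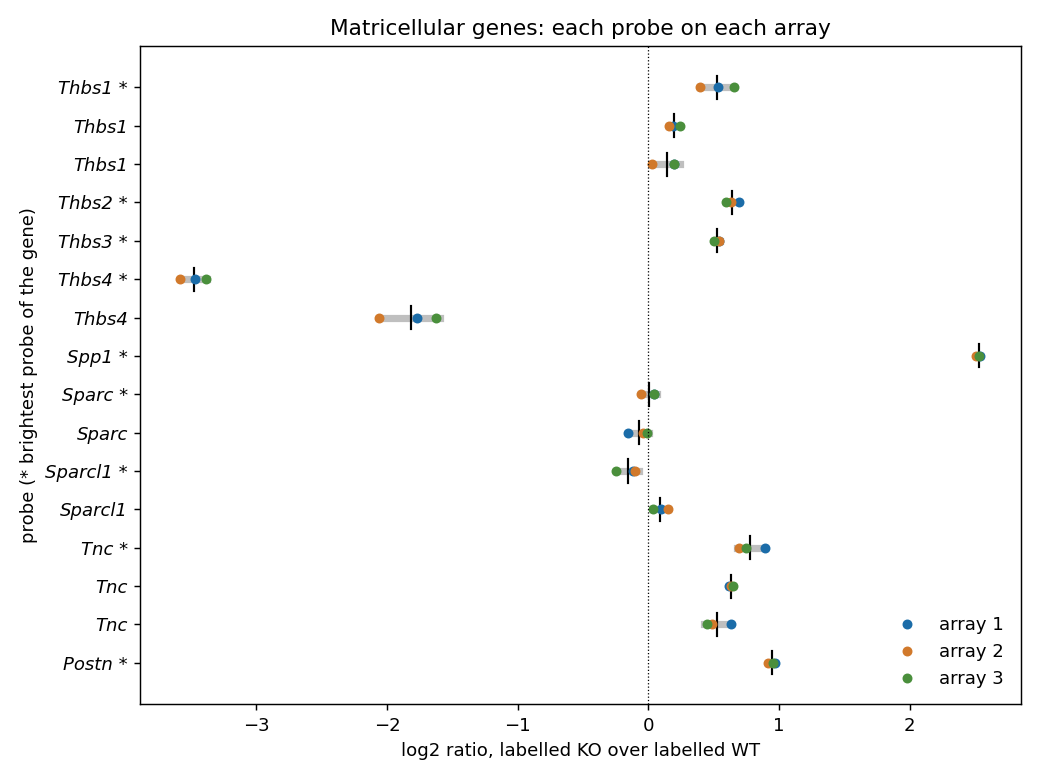
Log2 ratio, labelled KO against labelled WT, on each of the 3 arrays, for every probe of the 9 members, with the mean and SD. Thbs4 lies near -3.48 and Spp1 near 2.53, and the other genes lie between -0.15 and 0.95 by their brightest probes.

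The thrombospondins are secreted glycoproteins in which Thbs1 and Thbs2 form trimers and Thbs3, Thbs4 and cartilage oligomeric matrix protein form pentamers. Thbs1, an activator of latent TGF-beta and an inhibitor of blood vessel growth, read 0.54, 0.40 and 0.65 on the 3 arrays by its brightest probe (0.53 ± 0.13, SD, n = 3), 1.44-fold higher. Its log2 intensity was 11.66 to 11.79 in the RNA labelled KO and 11.10 to 11.27 in the RNA labelled WT, without overlap. The Thbs1 probes printed above gave smaller ratios, 0.20 ± 0.04 at 117863442 and 0.14 ± 0.10 at 117861824, and on every array each lay below the brightest probe. Both are dimmer, with log2 intensities of 7.02 to 7.75, and the offset added to each signal draws ratios of dim probes toward 0. Why these 2 probes read below the brightest one was not tested. With an offset of 16 they read 0.24 and 0.19, with the background fitted on all spots 0.06 and 0.04, with the scanner's processed signals 0.34 and 0.42, and with median centring alone -0.03 and -0.01. Their size therefore rests on the processing. Under centring the all-gene median was itself -0.26, and both probes lay above it, so their sign turned only against 0.

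Thbs2, the other trimeric form and also an inhibitor of vessel growth, had 1 probe, which read 0.70, 0.63 and 0.60 (0.64 ± 0.05, SD, n = 3), 1.56-fold higher. Its channels did not overlap, with log2 intensities of 10.16 to 10.22 labelled KO and 9.53 to 9.60 labelled WT. Thbs3, a pentamer of cartilage, bone and other tissues, also had 1 probe and read 0.54, 0.54 and 0.50 (0.53 ± 0.02), 1.44-fold higher. All 3 channels labelled KO, at 9.72 to 9.97, lay above all 3 labelled WT, at 9.21 to 9.43. Thbs1, Thbs2 and Thbs3 were thus higher on every array, and their order differed between arrays, with Thbs1 highest of them on array 3 and lowest on array 2.

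Thbs4, the pentameric thrombospondin of tendon, muscle and nervous system, which astrocytes of the subventricular zone produce after injury, went the other way. Its brightest probe, at chr13:89814004-89814063 on mm7, read -3.47, -3.58 and -3.38 (-3.48 ± 0.10, SD, n = 3), so that it was 11.1-fold lower in the RNA labelled KO. This was the lowest ratio of all 18054 genes. Its log2 intensity was 7.48, 7.35 and 7.48 labelled KO and 10.95, 10.93 and 10.86 labelled WT, so the channels were far apart on every array. The Thbs4 probe printed above lies 3555 bases away and read -1.77, -2.06 and -1.62 (-1.82 ± 0.22), 3.52-fold lower. It was lower on every array too, and its log2 intensity was 6.27 to 6.54 labelled KO and 8.16 to 8.33 labelled WT. The size of the Thbs4 ratio moved with the background correction, from -2.08 with the background fit on all spots to -4.28 in the authors' deposited table, while the direction did not turn in any processing tried. The probe printed above ranged from -0.42 with the fit on all spots to -3.36 in the authors' deposited table and with the scanner's processed signals.

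Spp1 encodes osteopontin, a phosphorylated ligand of integrins and of CD44 that is made by bone cells, macrophages and many stressed or migrating cells. Its probe, at chr5:103631152-103631211 on mm7, was spotted 10 times on each array. It read 2.54, 2.51 and 2.53 (2.53 ± 0.01, SD, n = 3), 5.76-fold higher in the RNA labelled KO and the second highest ratio of all genes. Of its 30 spots 29 were used, and the single spots ran from 2.37 to 2.58, with an SD between spots of 0.04 to 0.05 within an array. The log2 intensity was 14.27, 14.18 and 14.09 labelled KO and 11.73, 11.66 and 11.55 labelled WT. The spread between arrays of the Spp1 ratio was the smallest of any member. Its array values average up to 10 spots, while every other member probe had 1 spot per array, so these spreads are not comparable. The lowest Spp1 spot lay above the highest array of any other member.

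Since osteopontin is also a product of macrophages and microglia, their markers are given beside it. Of 13 such markers 7 were tested, with 2 higher and 1 lower by limma, and P2ry12, Ptprc and Trem2 did not stand well above background on any array. The summed signal of the tested markers was 1350 to 1383 labelled KO and 840 to 892 labelled WT. That difference lay in Lyz2, which encodes lysozyme and read 2.12, 2.07 and 2.03 on the 3 arrays. Without Lyz2 the sum was 668 to 688 labelled KO and 683 to 722 labelled WT. Cd68, a lysosomal protein of macrophages, was higher at 0.19 ± 0.07, and Tyrobp, a signalling adaptor of microglia, was lower at -0.28 ± 0.04.

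**Figure D2:**
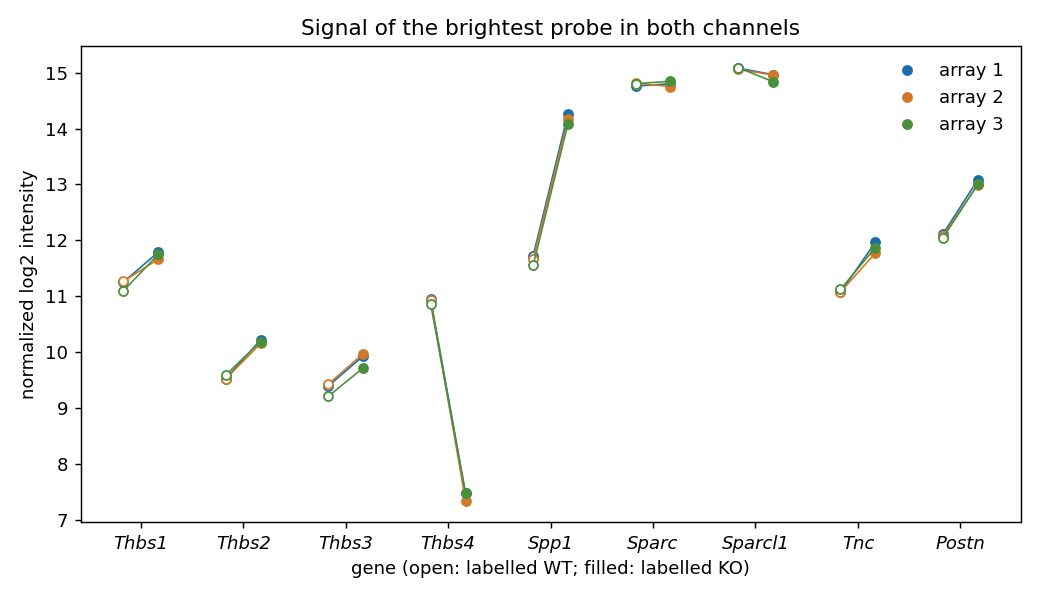
Log2 intensity of the brightest probe of each member in the channels labelled KO and WT on the 3 arrays, after normalization; levels may be compared within a gene and not between genes. Thbs4 and Spp1 are the pairs farthest apart, and the channels of Sparc overlap.

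Sparc, or osteonectin, binds collagen and loosens the attachment of cells, and Sparcl1 (hevin) is its close relative that promotes synapse formation. Sparc read 0.04, -0.06 and 0.04 by its brightest probe (0.01 ± 0.06, SD, n = 3), which did not pass the threshold. Its channels overlapped, at 14.75 to 14.85 labelled KO and 14.76 to 14.81 labelled WT, and its other probe, 2735 bases away, averaged -0.07 ± 0.08. Sparcl1 read -0.11, -0.10 and -0.25 (-0.15 ± 0.08), 1.11-fold lower and past the threshold. A Sparcl1 probe only 121 bases away read 0.09, 0.15 and 0.04 (0.09 ± 0.06), with the opposite sign on every array and not past the threshold. The direction of Sparcl1 therefore differs between its probes, and without array 3 its brightest probe, at -0.11, no longer passed. With the scanner's processed signals and in the authors' deposited table it read 0.0046 and 0.017.

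Tnc encodes tenascin-C, a hexameric glycoprotein that binds integrins and, through its repeats, growth factor receptors. Its brightest probe read 0.89, 0.70 and 0.75 (0.78 ± 0.10, SD, n = 3), 1.72-fold higher. The log2 intensity was 11.77 to 11.97 labelled KO and 11.07 to 11.13 labelled WT, without overlap. The other Tnc probes, 24505 and 53227 bases away on the genome, read 0.63 ± 0.02 and 0.52 ± 0.09. Probes at 3 places of the gene thus gave the same direction on every array. With the background fitted on all spots both of these dimmer probes averaged 0.15, and with the scanner's processed signals they averaged 1.01 and 0.79. Postn encodes periostin, an integrin ligand that takes part in collagen crosslinking and is a TGF-beta target. Its probe read 0.97, 0.92 and 0.96 (0.95 ± 0.03), 1.93-fold higher, with log2 intensities of 13.00 to 13.08 labelled KO and 12.05 to 12.11 labelled WT. A further probe that carries an older synonym of Postn on the array, and so lay outside the naming rule, read 0.03 ± 0.06.

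**Figure D3:**
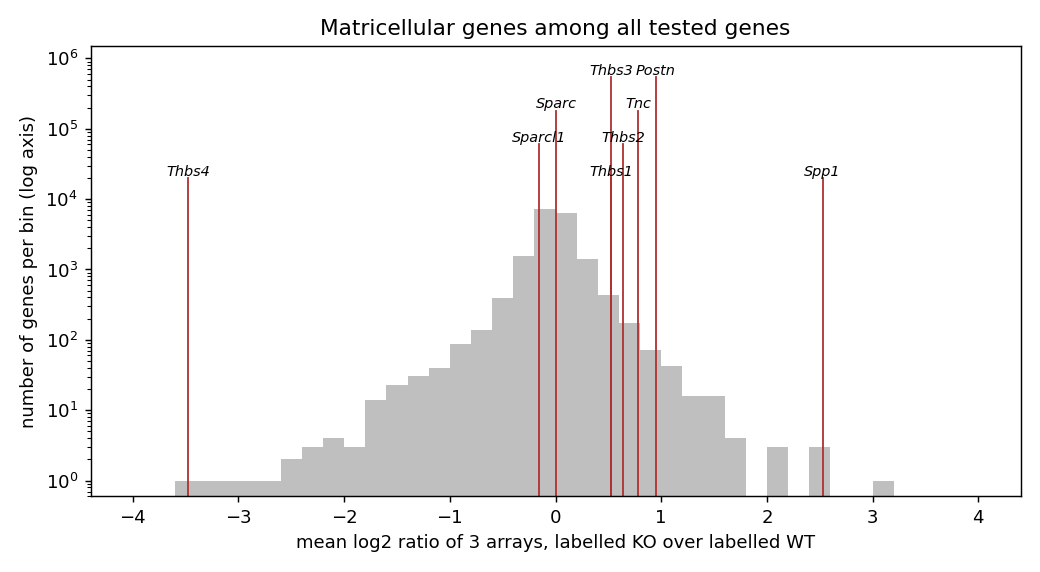
Histogram of the mean log2 ratio of all 18054 genes by their brightest probe, on a log count axis, with the 9 members as lines. Thbs4 at -3.48 lies at the lower end and Spp1 at 2.53 near the upper end, and Sparc and Sparcl1 lie in the bulk of the genes.

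Spp1 and Sparcl1 belong to one cluster of related secreted phosphoprotein genes on chromosome 5, in the order Sparcl1, Dspp, Dmp1, Ibsp, Mepe, Spp1. Between Sparcl1 and Spp1 lie 4 genes, and their probes are 363 kb apart (mm7). Pkd2, outside the cluster, is the next gene after Spp1. The members of the cluster did not share a ratio. Dspp and Ibsp did not stand well above background anywhere. Dmp1, a mineralization protein, was higher at 0.76 ± 0.04 (limma, adjusted p = 1.6e-06). Mepe, next to Spp1, read 0.11, -0.06 and -0.06 and did not pass (adjusted p = 0.96 by limma), and Pkd2 on the other side was lower at -0.10 ± 0.03 (adjusted p = 0.041 by limma). Of the 18 genes next to the members, 11 were tested, with 2 higher and 6 lower and no absolute ratio above 0.48. The shares of all genes were 21.9% higher and 24.8% lower, and nothing is read from so few neighbours. Those beside Thbs4 read -0.12 (Serinc5) and -0.11 (Mtx3).

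The genes nearest to Thbs4 in their ratios over the 3 arrays were Crym, at -3.37 ± 0.01 and a Euclidean distance of 0.24, Trim25 at -3.12 ± 0.14 and a distance of 0.66, and Gpx7 at -2.89 ± 0.07 and a distance of 1.03. Among those nearest to Spp1 were S100a4, at 2.43 ± 0.06 and a distance of 0.19, and Fmo2 at 2.19 ± 0.06 and a distance of 0.59. Likeness was measured over 3 arrays only, so it says little beyond the size of the ratio.

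Other matricellular genes passed the threshold in both directions. For this list and those below, the shares of all genes past the threshold were 21.9% higher and 24.8% lower. Of 21 listed genes 20 were matched to a probe and 13 were tested, of which 5 were higher and 6 lower by limma, with a median of -0.0028 against -0.01 for all genes. Dmp1 was followed by Spock2, a testican proteoglycan, at 0.60 ± 0.09, and by the integrin ligands Ccn1 at 0.53 ± 0.12 and Ccn2, a TGF-beta target, at 0.40 ± 0.15. Lower were Spock3 at -0.76 ± 0.10, which was -0.12 and did not pass with the background fitted on all spots, Ccn3 at -0.62 ± 0.07, the TGF-beta induced Tgfbi at -0.44 ± 0.13 and the calcium-binding Smoc2 at -0.41 ± 0.05, a neighbour of Thbs2. Tnr, the tenascin of mature neural tissue, did not reach well above background on any array, nor did Tnn, Ccn5, Spock1, Ibsp and Dspp.

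Receptors and cell surface partners were tested for 26 of 28 genes, of which 11 were higher and 6 lower by limma, with a median of 0.05. Nlgn1, lower at -0.15, stood well above background only in the channel labelled WT. Where both channels had to, 5 of 25 genes were lower, and with the median of a gene's probes 8 were higher and 7 lower. The count of higher genes includes Ptprz1, a tenascin receptor of neural stem cells, whose brightest probe was saturated on all arrays in either channel and so gives no ratio. Another tested Ptprz1 probe, which was not saturated, read -0.61, -0.52 and -0.35 and was lower, and a further probe, at 0.12 ± 0.20, did not pass. The syndecans Sdc4, at 0.79 ± 0.06, and Sdc1, at 0.39 ± 0.06, and the integrin subunit Itga8, a partner of osteopontin and tenascin-C, at 0.64 ± 0.06 (each adjusted p at most 8.6e-05 by limma), were highest. Receptors of osteopontin moved in both directions, singled out here after their values were seen. Cd44, at 0.37 ± 0.04, and the integrin subunits Itgav, at 0.35 ± 0.05, Itgb1, at 0.25 ± 0.09, and Itga8 were higher. Itgb3, Itga4 and Itga5, at -0.22 ± 0.03, were lower, and Itgb5, at -0.08 ± 0.08, and Itga9, at -0.03 ± 0.06, did not pass. Lowest of the list was Cd36, a thrombospondin receptor that also takes up lipids, at -0.93 ± 0.13. It was followed by Itgb3 at -0.43 ± 0.08, Itga4 at -0.32 ± 0.07 (-0.05 with the background fitted on all spots) and Vldlr at -0.28 ± 0.10. Cd47, also named above as a partner of matricellular proteins, was higher at 0.14 ± 0.02.

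Collagens and structural partners were tested for all 14 listed genes, with 4 higher and 5 lower by limma and a median of -0.03. The fibrillar collagens Col5a2, at -2.24 ± 0.03, and Col1a2, at -1.48 ± 0.02, were lower, as was the small proteoglycan Bgn at -0.69 ± 0.10 (each adjusted p at most 8.2e-06 by limma). On all arrays Col1a1 was saturated in the WT channel, and it was at least 1.95-fold lower. Col3a1, at 0.02, and Serpinh1, at 0.14, were saturated there on all arrays too, so their ratios are upper limits. Neither passed the threshold, and both enter the counts and the median as measured. The basement membrane collagens Col4a1, at 0.31 ± 0.04, and Col4a2, at 0.19 ± 0.10, and the crosslinking enzyme Lox, at 0.25 ± 0.15, were higher. Fn1 (fibronectin) read 0.93, 0.12 and 0.14 by its brightest probe, and without array 1 its mean was 0.13 in place of 0.39. The other tested Fn1 probes, at 0.10 ± 0.17 and 0.05 ± 0.06, did not pass. For the brightest Fn1 probe the adjusted p of 0.047 by limma was 0.11 in the authors' deposited table and 0.3 with the background fitted on all spots. Lox, Col4a2, Itga4 and Spock3 did not pass with that fit either, with adjusted p from 0.078 to 0.12 by limma. Of the fibroblast markers, which share collagens with this list, 2 of 10 were higher and 6 lower by limma. Their summed signal was 154500 to 158305 labelled KO and at least 204324 to 223521 labelled WT, where Col1a1 and Col3a1 were saturated on every array. Without these genes the sum was 82673 to 84623 labelled KO and 118369 to 118640 labelled WT.

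Of 10 proteases that cut matricellular proteins 8 were tested, of which 6 were higher and 1 lower by limma, with a median of 0.28. Mmp3 (stromelysin), which cleaves osteopontin, was 8.05-fold higher at 3.01 ± 0.06 (adjusted p = 5.1e-09 by limma). The aggrecanases Adamts1 and Adamts4, which can process thrombospondins and proteoglycans, read 0.41 ± 0.06 and 0.34 ± 0.06, and the membrane protease Mmp14 read 0.29 ± 0.07. Mmp9, which also cuts osteopontin, was lower at -0.48 ± 0.06. Of 14 TGF-beta pathway genes 5 were higher and 4 lower by limma, with a median of -0.02, against 21.9% and 24.8% of all genes. The higher count includes Smad3, of which another probe passed in the opposite direction. Ltbp3, a carrier of latent TGF-beta, read 0.59 ± 0.10, the receptor Tgfbr2 0.31 ± 0.02 and the ligand Tgfb3 0.27 ± 0.04, while the ligand Tgfb2 read -0.45 ± 0.09, Smad2 -0.42 ± 0.06, the receptor Tgfbr1 -0.42 ± 0.04 and Smad4 -0.17 ± 0.04.

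**Figure D4:**
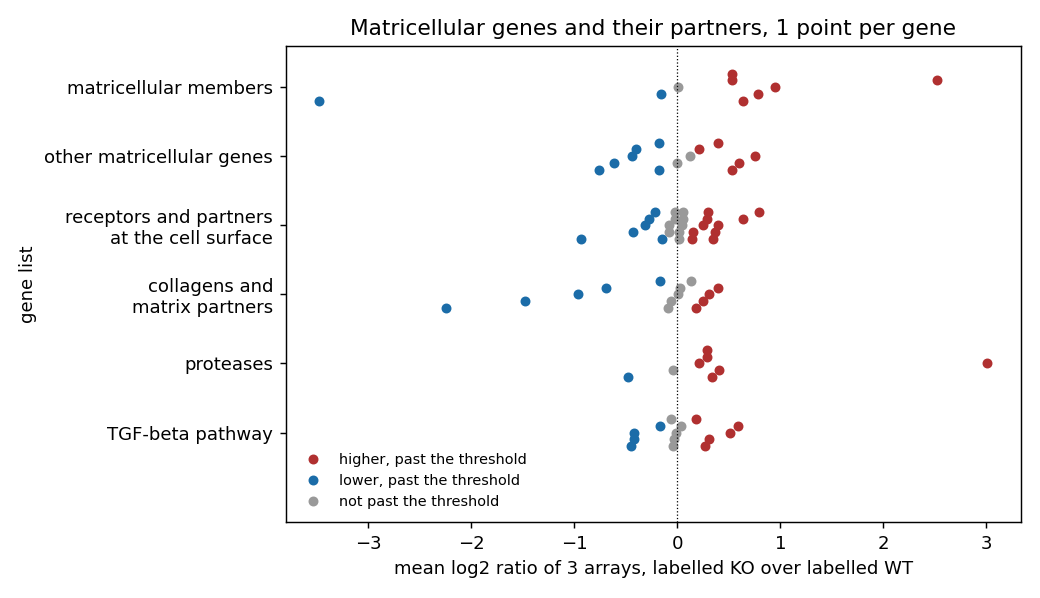
Mean log2 ratio of each tested gene of the members and 5 lists of related genes, 1 point per gene, coloured by whether it passed the threshold. Ptprz1, saturated in both channels, is not drawn. Col1a1, Col3a1 and Serpinh1, saturated in the WT channel, are drawn as measured. Mmp3 at 3.01 and Col5a2 at -2.24 are the farthest points outside the members.

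Centring each array on its median, without loess, put the all-gene median at -0.26 and left 7.81% of called genes higher, against 46.9% with loess. Relative to that median, Spp1 was at 2.25, Thbs4 at -3.59, Postn at 0.68, Tnc at 0.56, Thbs2 at 0.49, Thbs3 at 0.39, Thbs1 at 0.31, Sparc at -0.35 and Sparcl1 at -0.52, and these relative values were not tested. Tested against 0 as centred, Thbs1, at 0.050, and Thbs3, at 0.13, no longer passed, and Sparc, at -0.61, did. Of the 37 list genes named by rule, 11 went from above to below 0 as centred, namely Adamts1, Adamts4, Ccn2, Col4a1, Col4a2, Fn1, Lox, Mmp14, Sdc1, Tgfb3 and Tgfbr2. Relative to the all-gene median 9 of them stayed positive, and Col4a2, at -0.03, and Mmp14, at -0.06, did not.

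**Figure D5:**
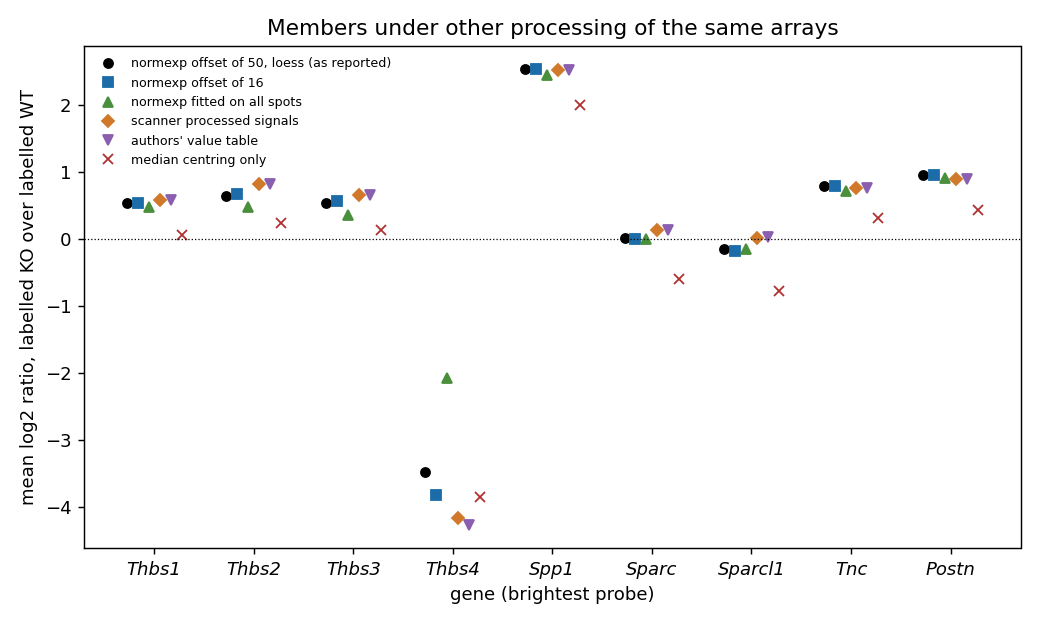
Mean log2 ratio of the 9 members by their brightest probe under 6 ways of processing the same arrays. Thbs4 ranges from -4.28 to -2.08 and Spp1 from 1.99 to 2.53, and median centring alone lies lowest for every member except Thbs4.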

How the data were processed

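Total RNA was compared on 3 2-colour Agilent arrays, labelled KO in Cy3 and labelled WT in Cy5. The deposited scanner files came from Feature Extraction 9.5.3.1 and hold raw intensity values of spots and background, with probes placed on mm7, per the file headers. They also give a log10 ratio, red over green per the file headers, used only to check direction. A value table deposited by the authors was taken for log2 ratios, KO against WT as labelled. For the direction, it correlated across features with the scanner's red over green, converted to log2, at r = -0.998, -0.997 and -0.993. For the scale, its slopes against those log2 values were -0.999, -1.03 and -0.973. Its column medians were 0.0272, 0.0231 and 0.0193. How it was centred is not given in the sources used.

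Mean signals were background-corrected with limma 3.58.1 in R 4.3.3 (normexp, offset 50, fitted on spots without an outlier mark) and loess-normalized array by array, giving control spots weight 0. The offset draws ratios of dim probes toward 0. Spots marked as feature outliers and control spots were dropped, saturated spots retained. Channel levels were scaled between arrays with Aquantile. Tests covered probes well above background in 1 channel on all 3 arrays. The mean log2 ratio was tested against 0 with limma (lmFit, eBayes, two-sided), and p-values were adjusted by Benjamini-Hochberg over all 26668 tested probes, with 0.05 as the threshold. The brightest probe stood for a gene. Of 41174 probes, 22951 were named through their accession and 9768 through a symbol or synonym, and 8455 kept the file's name. The fit was tested on simulated data.

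The members, lists and background fit were chosen with earlier results of these data known, so the members' values are given without a test. For each list, the 4 highest and 4 lowest genes past the threshold were named, with other genes singled out after their values were seen. For Thbs4 and Spp1, the 3 genes nearest by Euclidean distance over the arrays were named. Of the genes these rules pick, 2 are not reported here. Alternatives were another background fit, a smaller offset, the scanner's processed signals, the authors' table, median centring, other probe filters and summaries, and leaving out each array. The number of arrays limits the precision.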

Additional observations from a re-analysis of the deposited data

How the results depend on the processing

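The test of the ratio within each array is itself the paired comparison of 1 replicate number, so there was no unpaired fit to set a block against. With the background fitted on all spots, 2179 genes were higher and 2915 lower, against 3958 and 4475, and Thbs2 read 0.47, Thbs3 0.36, Thbs4 -2.08, Spp1 2.44 and Postn 0.90, with 1 collagen gene higher. With the scanner's processed signals 1 member was lower, 2 collagen genes were higher, and Thbs2 read 0.81, Thbs3 0.65, Thbs4 -4.16, Sparc 0.14, Sparcl1 0.0046 and Postn 0.89. From the authors' deposited values, 1 member was lower, and Thbs2 read 0.81, Thbs3 0.65, Thbs4 -4.28, Spp1 2.51, Sparc 0.14, Sparcl1 0.017 and Postn 0.89. With an offset of 16, Thbs3 read 0.56 and Thbs4 -3.82. With the median of a gene's probes 1 member was lower, and Thbs1 read 0.20, Thbs4 -2.65, Sparcl1 -0.031, Tnc 0.64 and Postn 0.49. That Postn value takes in the probe outside the naming rule, at 0.03.

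With median centring alone 823 genes were higher and 9720 lower, and Thbs1 read 0.050, Thbs2 0.23, Thbs3 0.13, Thbs4 -3.85, Spp1 1.99, Sparc -0.61, Sparcl1 -0.78, Tnc 0.30 and Postn 0.42. There, other matricellular genes had 2 higher, receptors 2 higher and 14 lower, collagens 0 higher and 10 lower, proteases 1 higher and 3 lower, and the TGF-beta list 0 higher and 7 lower. The cause of these changes was not tested. Leaving out an array gave 1 to 2 members lower, 2966 to 3833 genes higher and 3290 to 4062 lower, and Sparcl1 at -0.18 to -0.11.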
